A study of Mus musculus with 8 samples.

Results

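The 10 genes Atf4, Ddit3, Chac1, Trib3, Nupr1, Atf3, Atf5, Cebpb, Ddit4 and Sesn2 encode regulators of the integrated stress response and some of their best known targets. They were taken by symbol from the array annotation, and all 10 were measured, on 17 probe sets, among 18193 genes in all. Where a gene had several probe sets, the brightest on average over the 8 arrays was used. RNA came from male 129S4/Svjae mouse embryonic stem (ES) cells kept in medium with leukemia inhibitory factor, and 1 array was run per sample. Lentiviral short hairpins targeted Jmjd2c in 2 samples (Jmjd2c knockdown) and Jmjd2b in 3 samples (Jmjd2b knockdown), and 3 control samples carried a hairpin against GFP, a jellyfish protein that is not a gene of these cells. Cells of all 3 groups had thus been infected, selected with puromycin and passaged. The hairpin targets appear on the array as Kdm4b (Jmjd2b) and Kdm4c (Jmjd2c), enzymes that remove methyl groups from histone H3, and the study asks what they do for ES cell identity. The labels do not give the hairpin sequences, the number of hairpins per target or whether replicates were infected separately, so p-values measure only the spread between these samples.

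When amino acids run short or unfolded proteins build up in the endoplasmic reticulum, kinases such as PERK and GCN2 phosphorylate the translation factor eIF2, which slows protein synthesis in general and favours translation of the Atf4 message. ATF4 protein, a bZIP transcription factor, pairs with C/EBP family members on composite DNA sites and turns on genes for amino acid supply, tRNA charging and further stress factors, among them CHOP, the product of Ddit3. Because ATF4 is controlled largely at translation, its transcript level says little about its protein level. In bulk RNA, fewer cells that express a gene and less RNA per cell cannot be told apart.

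The promoters of the genes were searched for the letters of such composite sites. RefSeq promoter windows (GRCm38.p6, 250 bases before to 50 after the start) were on hand for all 10 genes, 2 of them for Atf5. The composite ATF4 and C/EBP motif TGATGNAA, searched on both strands, occurs in the windows of 4 of the 10 genes, which are Chac1, Trib3, Nupr1 and Atf3. It occurs in those of 4.51% of all 27025 genes with a window. These 4 stretches are printed 5′ to 3′ on the gene's strand, with the match in capitals. They lie at chr2:119350999-119351106 on the plus strand for Chac1, and on the minus strand at chr2:152344028-152344057 for Trib3, chr7:126625523-126625630 for Nupr1 and chr1:191183386-191183493 for Atf3.
Chac1: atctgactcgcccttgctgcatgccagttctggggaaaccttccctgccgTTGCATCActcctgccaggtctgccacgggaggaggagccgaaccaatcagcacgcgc
Trib3: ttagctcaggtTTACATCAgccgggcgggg
Nupr1: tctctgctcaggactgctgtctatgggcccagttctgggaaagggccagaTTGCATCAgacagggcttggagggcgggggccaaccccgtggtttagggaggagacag
Atf3: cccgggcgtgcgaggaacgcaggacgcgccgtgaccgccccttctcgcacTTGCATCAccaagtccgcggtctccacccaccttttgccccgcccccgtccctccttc
All 4 matches read as the reverse complement of the motif on the gene's strand, and Chac1, Nupr1 and Atf3 hold the same 8 letters, TTGCATCA, while Trib3 holds TTACATCA. Counted from the start site, the match begins at -193 in Chac1, at -110 in both Nupr1 and Atf3, and at 15 in Trib3, inside the transcript. The cyclic AMP response core TGACGT, searched on both strands, is in 1 of the 10, Atf3, at -8 to -3 and apart from its composite match, against 8.37% of all genes with a window. The endoplasmic reticulum stress element (CCAAT, then 9 bases of any kind, then CCACG, on either strand) was found in 0 of the 10 and in 0.137% of all genes with a window. It was found in 6 of 17 genes of the ATF6, IRE1 and XBP1 branches, the other arms of the unfolded protein response. Among genes with a window, the composite motif was in 2 of 10 for amino acid synthesis, 2 of 6 for amino acid transport, 5 of 8 for tRNA charging, 3 of 10 other products of the branch, 1 of 11 for eIF2 kinases and subunits and 1 of 17 of the ATF6, IRE1 and XBP1 branches, and in 0 of each of the remaining lists. A match describes letters and is not evidence that a factor binds there.

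The arrays had like medians, between 44.7 and 46.6 intensity units. Control arrays 1 and 2 and Jmjd2b array 2 held 412 to 455 values of exactly 1 and at most 2 lower ones, while the other 5 arrays held 172 to 241 values below 1. Identical values across probe sets, those of exactly 1 included, sorted the arrays into 3 sets. Pairs within a set shared 0.412% to 0.621% of values, against 0.0355% to 0.0798% between sets. One set held Jmjd2b array 2 with control arrays 1 and 2, another Jmjd2b array 1 with control array 3, and the last Jmjd2c arrays 1 and 2 with Jmjd2b array 3. The first of these sets holds the arrays with many values of exactly 1, so there the signs may not be separate. No control lies in the set of the Jmjd2c arrays. What the sets stand for is unknown here, and results are given with them as a block where that changes a call. Kdm4c stood at 11.1% and 36.7% of the control mean in Jmjd2c arrays and at 58.7%, 62.5% and 50.8% in Jmjd2b arrays. Kdm4b stood at 52.3% and 60.9% of the control mean in Jmjd2c arrays and at 10.8%, 6.27% and 3.64% in Jmjd2b arrays. For neither gene did the knockdown of its relative pass the test (limma), which does not show that the level was unchanged. Kdm4b changed by -0.74 ± 0.31 in the Jmjd2c knockdown (unadjusted p = 0.0384, adjusted p = 0.178). Kdm4c changed by -0.79 ± 0.32 in the Jmjd2b knockdown (unadjusted p = 0.0319, adjusted p = 0.102). The summed intensity of 8 ES cell markers was 48828 and 49260 in Jmjd2c arrays, 46492 to 50120 in Jmjd2b arrays and 57156 to 57185 in controls. Of the 8, 2 fell in the Jmjd2c knockdown, and 5 fell and 1 rose (0 with the replicate number as a block) in the Jmjd2b knockdown. Pou5f1 and Utf1, named after their values were seen, had log2 changes of -0.07 and -0.03 in the Jmjd2c knockdown. In the Jmjd2b knockdown these were -0.002 and 0.01, none passing. Marker counts stand beside the shares of all genes called, 5.28% lower and 4.31% higher in the Jmjd2c knockdown. In the Jmjd2b knockdown the shares were 12.9% lower and 11.6% higher. The summed intensity of 10 markers of fibroblasts, which can serve as feeder cells, was 396 and 470 in Jmjd2c arrays, 363 to 410 in Jmjd2b arrays and 639 to 682 in controls. This sum mostly follows the markers brightest in controls, Pdgfrb and Thy1. Pdgfrb read 128 and 267 in Jmjd2c arrays, 130 to 144 in Jmjd2b arrays and 357 to 390 in controls. Thy1 read 53.1 and 17.4 in Jmjd2c arrays, 28.2 to 40.9 in Jmjd2b arrays and 106 to 123 in controls. Of these 10 markers, 2 (Pdgfrb and Thy1) fell in each knockdown, and 1, the collagen gene Col1a1, rose in the Jmjd2b knockdown (log2 change 1.34 ± 0.17), at 25.0 and 26.4 intensity units in Jmjd2c arrays, 47.4 to 69.9 in Jmjd2b arrays and 7.34 to 17.7 in controls. The ratio of the actin control probe sets at the 3′ and 5′ ends, a sign of RNA quality, was 1.48 and 1.43 in Jmjd2c arrays, 1.42, 1.36 and 1.31 in Jmjd2b arrays and 1.63, 1.45 and 1.56 in controls, so every Jmjd2b array lay below every control. That of Gapdh was 0.936 to 0.987 over all arrays. The part of these marker and RNA quality shifts in the changes of the 10 genes was not tested.

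Of the 10 stress genes, 6 fell in the Jmjd2c knockdown and 6 fell in the Jmjd2b knockdown, and they were the same 6: Nupr1, Ddit3, Chac1, Trib3, Ddit4 and Atf4. None rose in either, by limma with Benjamini-Hochberg adjustment over all genes at a threshold of 0.05, and at an unadjusted p under 0.05 the count of higher genes was 0 in the Jmjd2c and 1 in the Jmjd2b knockdown, Atf3. Over all genes, 5.28% were called lower and 4.31% higher in the Jmjd2c knockdown, and 12.9% lower and 11.6% higher in the Jmjd2b knockdown. An unadjusted p under 0.05, in either direction, was found for 4356 of 18193 genes in the Jmjd2c and 6455 in the Jmjd2b knockdown (limma). The median log2 change of the 10 was -0.77 in the Jmjd2c and -0.47 in the Jmjd2b knockdown, beside -0.02 in the Jmjd2c and -0.03 in the Jmjd2b knockdown for all genes. Both comparisons use the same 3 controls, so their results are not independent. Where arrays are said below not to overlap, the share of all genes that do the same was not counted, so this describes the values only. Changes are differences of log2(intensity + 16), which understates those of dim genes, and are given with their standard error.

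**Figure D1:**
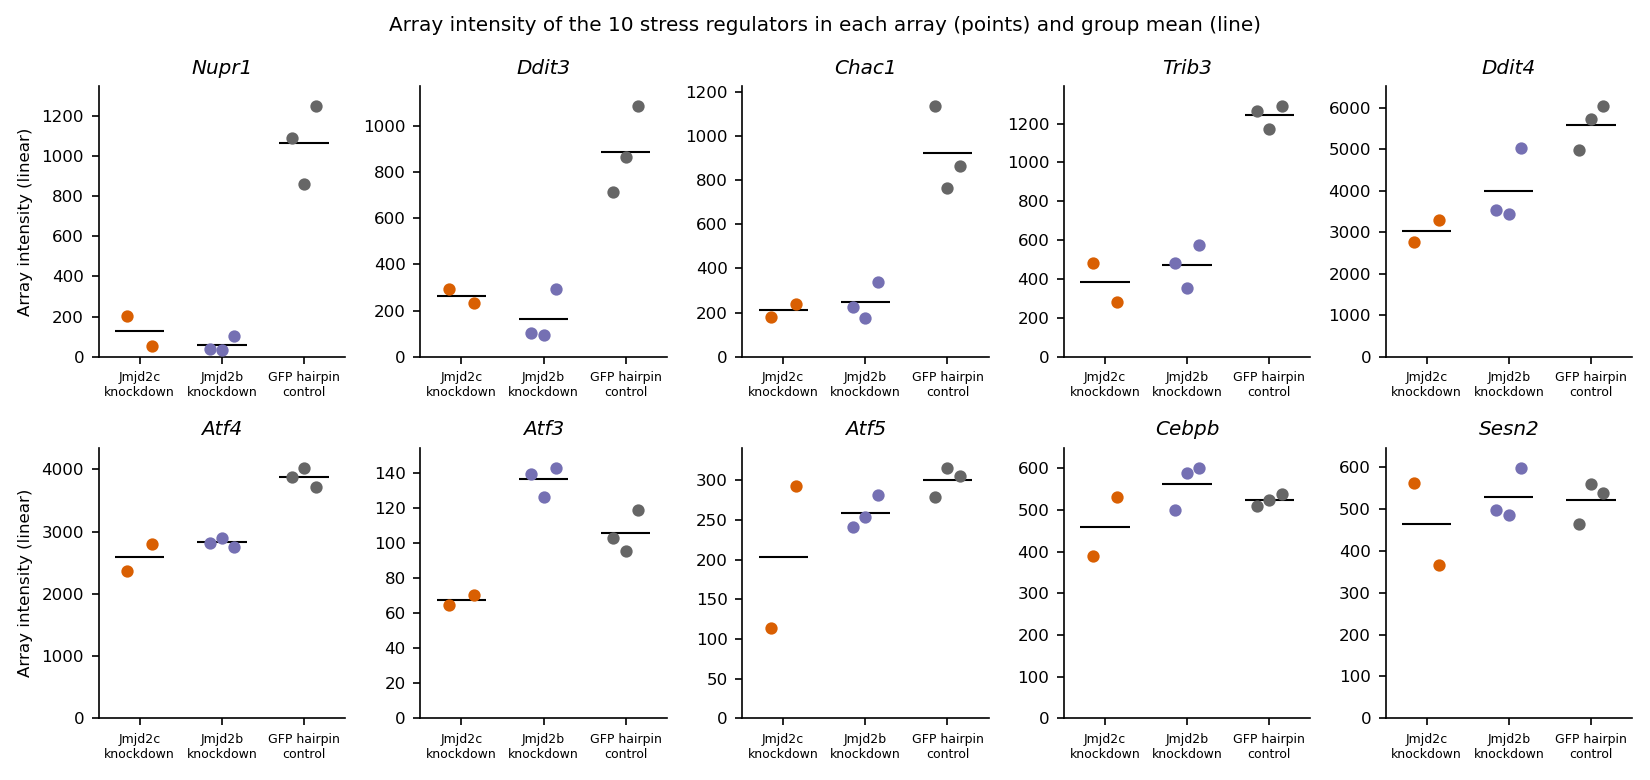
Array intensity (linear, deposited values) of each of the 10 genes in Jmjd2c knockdown (2 arrays), Jmjd2b knockdown (3 arrays) and control (3 arrays), with a point per array and a line at the group mean. In Nupr1, Ddit3, Chac1, Trib3 and Atf4 every knockdown array lies below every control array, while in Atf3 the Jmjd2c arrays lie below and the Jmjd2b arrays above all controls. The share of all genes that separate in these ways was not counted.

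Nupr1 encodes a small nuclear protein induced by many stresses, and it fell furthest of the 10. Its intensity was 202 and 51.6 in Jmjd2c arrays, 37.9, 34.5 and 102 in Jmjd2b arrays and 1087, 860.3 and 1248 in control arrays. The highest knockdown array, Jmjd2c array 1, lay far below the lowest control, and the knockdown and control groups did not overlap. The change was -3.14 ± 0.48 in the Jmjd2c knockdown (adjusted p = 0.00561) and -3.97 ± 0.43 in the Jmjd2b knockdown (adjusted p = 2.42e-04). A second probe set gave the same picture, with 148 and 26.3 in Jmjd2c arrays, 25.8, 21.3 and 81.6 in Jmjd2b arrays and 804, 572 and 875 in controls. The Jmjd2c estimate depends on the array: it was -3.98 without array 1 and -2.29 without array 2.

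Ddit3 encodes CHOP, a C/EBP relative that ATF4 induces and that promotes cell death under lasting stress. Intensities were 295 and 232 in Jmjd2c arrays, 104, 96.2 and 292 in Jmjd2b arrays and 713, 863 and 1085 in controls. Jmjd2b array 3 stood far above its group's other arrays, level with Jmjd2c array 1 of the same value set, and all knockdown arrays were below all controls. The change was -1.68 ± 0.38 in the Jmjd2c knockdown (adjusted p = 0.0247) and -2.47 ± 0.34 in the Jmjd2b knockdown (adjusted p = 8.25e-04). The Jmjd2c call was lost without Jmjd2c array 2 (adjusted p = 0.0815) and without control array 1, 2 or 3 (adjusted p = 0.0518, 0.0587 and 0.102). A dimmer probe set read 43.7 and 43.97 in Jmjd2c arrays, 38.2, 44.5 and 63.0 in Jmjd2b arrays and 61.0, 119.9 and 121 in controls, so that Jmjd2b array 3 overlapped control array 1 there. With both probe sets averaged, the changes were -1.30 in the Jmjd2c and -1.65 in the Jmjd2b knockdown.

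Chac1 encodes a gamma-glutamylcyclotransferase that breaks down glutathione, and it is induced through ATF4. Its intensity was 180.5 and 241 in Jmjd2c arrays, 226, 178 and 341 in Jmjd2b arrays and 1135, 766 and 862 in controls, with no overlap. Its change was -2.04 ± 0.26 in the Jmjd2c knockdown (adjusted p = 0.00354) and -1.85 ± 0.23 in the Jmjd2b knockdown (adjusted p = 4.88e-04). Trib3 encodes a pseudokinase of the tribbles family that CHOP and ATF4 induce and that in turn dampens ATF4. It had 481 and 284 intensity units in Jmjd2c arrays, 484, 355 and 573 in Jmjd2b arrays and 1264, 1171 and 1289.8 in controls, where the arrays agreed closely. The change was -1.70 ± 0.23 in the Jmjd2c knockdown (adjusted p = 0.00423) and -1.39 ± 0.21 in the Jmjd2b knockdown (adjusted p = 0.00118), and a second, dimmer Trib3 probe set separated the groups in the same way. Chac1 and Trib3, like Nupr1, hold the motif match printed above, while Ddit3, Ddit4 and Atf4 have no match in their windows. Sites outside the windows were not searched, and binding was not tested.

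Ddit4 encodes REDD1, which restrains the growth kinase mTORC1. Intensities were 2773 and 3298 in Jmjd2c arrays, 3533, 3432 and 5036 in Jmjd2b arrays and 4979.5, 5724 and 6038 in controls. Jmjd2b array 3 was above control array 1, so these groups overlapped. Ddit4 changed by -0.88 ± 0.16 in the Jmjd2c knockdown (adjusted p = 0.0108) and by -0.50 ± 0.14 in the Jmjd2b knockdown (adjusted p = 0.0303). The Jmjd2b call was lost without Jmjd2b array 1 or 2 (adjusted p = 0.109 and 0.122), without control array 2 or 3 (0.0845 and 0.121) and with no trend in the spread (0.0645), and the Jmjd2c call was lost without control array 3 (0.0546).

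Atf4 itself also fell in both knockdowns. Its intensity was 2371 and 2808 in Jmjd2c arrays, 2826, 2905 and 2749.7 in Jmjd2b arrays and 3882, 4030.3 and 3720.4 in controls, with no overlap. The change was -0.58 ± 0.09 in the Jmjd2c knockdown (adjusted p = 0.00552) and -0.45 ± 0.08 in the Jmjd2b knockdown (adjusted p = 0.00265). In linear terms the group means were 66.8% of control in the Jmjd2c and 72.9% in the Jmjd2b knockdown. The probe set used is of a type that can also bind related transcripts, as are the one used for Trib3 and the second one of Nupr1. The probe set specific to Atf4 gave -0.74 and -0.64 in the Jmjd2c and Jmjd2b knockdowns. A further Atf4 probe set was dim, at 2 to 22 intensity units.

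**Figure D2:**
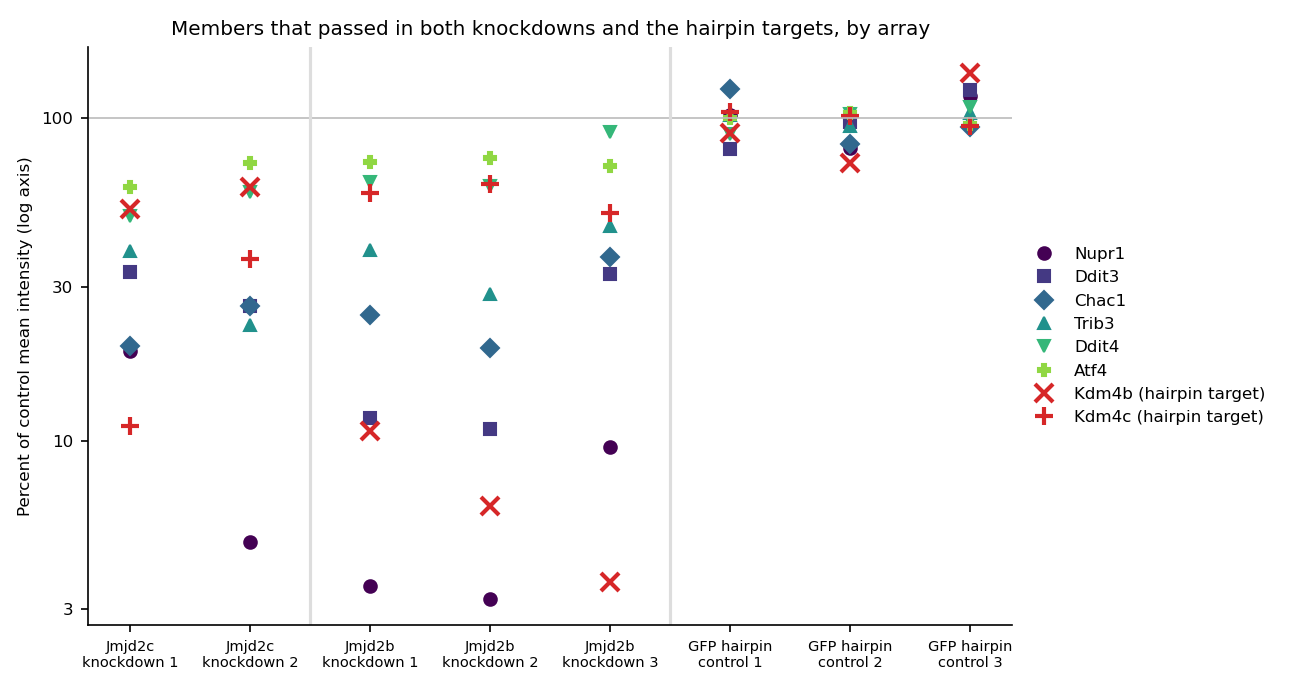
Intensity of the 6 genes that passed in both knockdowns, and of the hairpin targets Kdm4b and Kdm4c, as a percent of the control mean (log axis), with an array per column. Jmjd2b array 3 has the least Kdm4b of its group (3.64%) and the most Nupr1, Ddit3, Chac1, Trib3 and Ddit4. Its Kdm4b reading, 17.0 intensity units, is below the array median, and it shares a value set with the Jmjd2c arrays.

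Within the Jmjd2b knockdown, Kdm4b read 50.3, 29.3 and 17.0 intensity units in arrays 1, 2 and 3, close to or below the array medians. The order of such dim values is a weak measure of the depth of knockdown. Array 3 is also the Jmjd2b array in the value set of the Jmjd2c arrays, and the part of that set cannot be told apart here. Array 3, with the least Kdm4b, had 9.53% of the control mean of Nupr1, against 3.55% and 3.24% in arrays 1 and 2. It had 32.9% of the control mean of Ddit3, against 11.7% and 10.8% in the other arrays, and was also the highest of the group in Chac1, Trib3 and Ddit4, though not in Atf4. In the Jmjd2c knockdown, array 1 had less Kdm4c than array 2 but more Nupr1, Ddit3 and Trib3 and less Chac1, Ddit4 and Atf4. These are values of single arrays.

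The other 4 genes passed in neither knockdown against control. Atf3 encodes a bZIP factor that stress and growth signals induce quickly. Its intensity was 64.8 and 70.2 in Jmjd2c arrays, 139, 126 and 143 in Jmjd2b arrays and 103, 95.1 and 119 in controls, so the Jmjd2c arrays lay below and the Jmjd2b arrays above all controls. Its change was -0.54 ± 0.15 in the Jmjd2c knockdown (adjusted p = 0.0502) and 0.33 ± 0.13 in the Jmjd2b knockdown (adjusted p = 0.106). The Jmjd2c value passed under 5 of 20 alternative settings. Atf3 is the 1 gene with a match to the composite motif in its window that did not pass.

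Atf5 encodes a relative of ATF4 whose message is also translated preferentially when eIF2 is phosphorylated. It had 114 and 293 intensity units in Jmjd2c arrays, 241, 253 and 282 in Jmjd2b arrays and 279.6, 316 and 305 in controls. Jmjd2c array 1 alone was far below every other array. Its change was -0.66 ± 0.29 in the Jmjd2c knockdown (adjusted p = 0.204) and -0.20 ± 0.26 in the Jmjd2b knockdown (adjusted p = 0.63). Without Jmjd2c array 2 the Jmjd2c value was -1.28 (adjusted p = 0.00306), and without array 1 it was -0.03.

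Cebpb encodes C/EBP beta, a partner of ATF4 on composite sites. It had 389 and 532 intensity units in Jmjd2c arrays, 499.6, 588 and 602 in Jmjd2b arrays and 509.7, 525 and 538 in controls, and all groups overlapped. Its change was -0.20 ± 0.15 in the Jmjd2c knockdown (adjusted p = 0.494) and 0.10 ± 0.14 in the Jmjd2b knockdown (adjusted p = 0.675). Sesn2 encodes a leucine sensor that holds back mTORC1 and is an ATF4 target. It had 562 and 366 intensity units in Jmjd2c arrays, 499, 485 and 599 in Jmjd2b arrays and 465, 561 and 539 in controls, again overlapping. Its change was -0.19 ± 0.19 in the Jmjd2c knockdown (adjusted p = 0.599) and 0.02 ± 0.17 in the Jmjd2b knockdown (adjusted p = 0.963). The 2 Sesn2 probe sets did not order the group means alike: the dimmer one averaged 298 ± 101 in Jmjd2c arrays (n = 2), 239 ± 62.6 in Jmjd2b arrays and 204 ± 22.2 in controls (SD, n = 3 each).

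**Figure D3:**
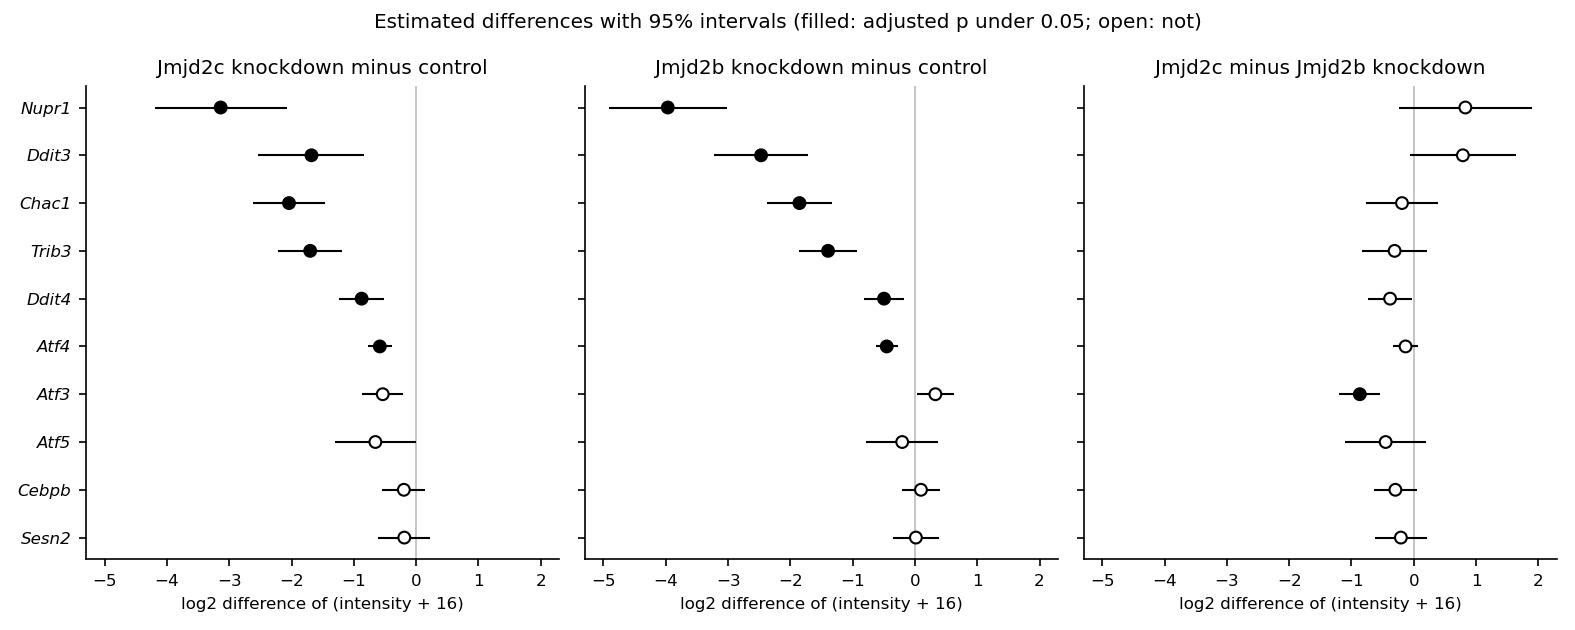
Estimated log2 difference of (intensity + 16) for each of the 10 genes, with its 95% interval, for Jmjd2c knockdown minus control, Jmjd2b knockdown minus control and Jmjd2c minus Jmjd2b knockdown. Filled points passed at an adjusted p under 0.05: 6 genes in each comparison with control and Atf3 alone between the knockdowns.

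The value sets matter for how firmly these falls can be stated. With the set as a block, 6 of the 10 genes were again called lower in the Jmjd2b knockdown, with Nupr1 at -4.40 and Atf4 at -0.42. The Jmjd2c arrays share no set with a control, so under this block their change is their difference from Jmjd2b array 3 added to the Jmjd2b change, and is no direct measurement against controls. For Nupr1 it was -4.35, from 0.05 and -4.40, and for Ddit3 -3.14, from -0.15 and -2.99. Of the 10 genes 1, Ddit3, was called in this way (adjusted p = 0.0453). The fall of the 6 genes in the Jmjd2c knockdown thus rests on comparisons across value sets. Within the 3 arrays whose values stop at 1, which hold 1 Jmjd2b array and 2 controls, the Jmjd2b change was -4.28 for Nupr1, -2.84 for Ddit3, -2.29 for Chac1, -1.73 for Trib3, -0.64 for Ddit4 and -0.44 for Atf4. Within the 5 others, which hold 1 control (array 3), the changes in the Jmjd2c and then the Jmjd2b knockdown were -3.38 and -3.99 for Nupr1, -1.99 and -2.52 for Ddit3, -1.97 and -1.58 for Chac1, -1.76 and -1.27 for Trib3, -0.99 and -0.52 for Ddit4, and -0.53 and -0.41 for Atf4. In both of these subsets of arrays, 1 group holds a single array and has no spread of its own. The values there are thus sizes of change and not calls.

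Set against each other, the knockdowns differed in 1 of the 10 genes. Atf3 was lower in the Jmjd2c than in the Jmjd2b knockdown by a log2 difference of -0.87 ± 0.15 (95% interval -1.20 to -0.53, adjusted p = 0.0402), and 0 were higher. Over all genes, 0.489% were called lower and 0.203% higher, which is 89 and 37 genes, or 74 and 55 after quantile normalization. At an unadjusted p under 0.05, 2 of the 10 were lower, Atf3 and Ddit4, and 0 were higher. The Atf3 call is fragile: it was lost without any 1 of the Jmjd2b arrays (adjusted p = 0.113, 0.139 and 0.0825) or of the controls (0.0784, 0.0745 and 0.0727), and with the replicate number as a block (-0.81, adjusted p = 0.0654). Within the set of Jmjd2c arrays and Jmjd2b array 3, the Atf3 difference was -0.93.

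For the other 9 genes the interval of the difference included 0, except that of Ddit4, at -0.38 (-0.74 to -0.02, adjusted p = 0.35). The widest were those of Nupr1, at 0.83 (-0.23 to 1.89), and Ddit3, at 0.79 (-0.06 to 1.64), where the Jmjd2c knockdown had the higher estimates. Within the set that holds Jmjd2b array 3 these estimates were 0.05 for Nupr1 and -0.15 for Ddit3. The differences were -0.19 for Chac1 (-0.77 to 0.39), -0.31 for Trib3 (-0.82 to 0.21) and -0.13 for Atf4 (-0.33 to 0.07). They were -0.45 for Atf5 (-1.10 to 0.20), -0.29 for Cebpb (-0.64 to 0.05) and -0.21 for Sesn2 (-0.62 to 0.21). Without Jmjd2c array 2, Atf5 differed by -1.07 (adjusted p = 0.0107), and without array 1 by 0.17.

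Genes downstream of ATF4 in amino acid metabolism mostly fell too. Counts of this and each later list stand beside the shares of all genes called. These were 5.28% lower and 4.31% higher in the Jmjd2c knockdown, and 12.9% lower and 11.6% higher in the Jmjd2b knockdown. Of 11 measured genes for amino acid synthesis and one-carbon metabolism, 10 fell and 0 rose in the Jmjd2c knockdown (median -0.86), and 9 fell and 0 rose in the Jmjd2b knockdown (median -0.64). At an unadjusted p under 0.05, 0 were higher in either. Pck2, the mitochondrial enzyme that makes phosphoenolpyruvate, fell by 1.74 ± 0.23 in the Jmjd2c and by 1.61 ± 0.20 in the Jmjd2b knockdown. Gpt2, a mitochondrial alanine transaminase, changed by -1.82 ± 0.23 in the Jmjd2c and -1.38 ± 0.21 in the Jmjd2b knockdown. Aldh18a1, an enzyme of proline synthesis, changed by -0.74 ± 0.11 in the Jmjd2c and -0.98 ± 0.10 in the Jmjd2b knockdown, both passing like those of Gpt2. Cth, which makes cysteine from cystathionine, differed between the knockdowns by -1.02 ± 0.12 (Jmjd2c minus Jmjd2b, adjusted p = 0.0137): it fell by 0.88 ± 0.12 in the Jmjd2c knockdown and changed by 0.14 ± 0.11 in the Jmjd2b knockdown (adjusted p = 0.4). Without 1 array the fallen genes numbered 7 to 10 in the Jmjd2c and 6 to 10 in the Jmjd2b knockdown, and with the value set as a block they numbered 0 in the Jmjd2c and 7 in the Jmjd2b knockdown. With that block, which sets the Jmjd2c arrays against controls only by way of Jmjd2b array 3, 0 genes of any list below were called in the Jmjd2c knockdown (limma; 2643 genes of the whole array had an unadjusted p under 0.05). The 44 named list genes are those of smallest p in each list, so a high share called follows from that choice. Of these 44, 24 were called in the Jmjd2c knockdown. The 8 that stayed called without any 1 array were Aldh18a1, Cth, Gpt2, Pck2, Vegfa, Deptor, Rragd and Hsph1. In the Jmjd2b knockdown 36 were called and 28 stayed called, all but Slc7a3, Cars, Eif2s2, Eif2ak1, Mtor, Trib1, Srxn1 and Dnajb1.

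Amino acid transporters carry amino acids across the cell membrane. Of 9 genes for amino acid transport, 1 fell and 0 rose in the Jmjd2c knockdown (median -0.12, with 3 lower and 2 higher at an unadjusted p under 0.05), and 1 fell and 1 rose in the Jmjd2b knockdown (median -0.02), where 12.9% of all genes were called lower and 11.6% higher. The arginine and lysine transporter Slc7a1 fell by 0.75 ± 0.20 in the Jmjd2c (adjusted p = 0.0445, and 0.0637 with the replicate number as a block) and by 0.92 ± 0.18 in the Jmjd2b knockdown. Its relative Slc7a3 changed by 0.58 ± 0.18 in the Jmjd2c knockdown (adjusted p = 0.0668) and rose by 0.64 ± 0.16 in the Jmjd2b knockdown. Slc1a5 and Slc1a4, carriers of neutral amino acids, changed by -0.56 and -0.54 in the Jmjd2c knockdown and by -0.60 and 0.05 in the Jmjd2b knockdown, none passing.

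Of 12 genes for tRNA charging, 3 fell and 0 rose in the Jmjd2c knockdown (median -0.29, 9 lower and 0 higher at an unadjusted p under 0.05), and 8 fell and 1 rose in the Jmjd2b knockdown (median -0.30). The 1 that rose was Wars, named after its value was seen, at 0.04 ± 0.13 in the Jmjd2c knockdown (adjusted p = 0.9) and 0.42 ± 0.12 in the Jmjd2b knockdown (adjusted p = 0.0259). Among the tRNA synthetases, Yars changed by -0.55 ± 0.13 in the Jmjd2c and -0.53 ± 0.11 in the Jmjd2b knockdown, and Nars by -0.33 ± 0.08 in the Jmjd2c and -0.32 ± 0.07 in the Jmjd2b knockdown, all passing. With the replicate number as a block, the Jmjd2c count was 0, and Yars and Nars missed the threshold there (adjusted p = 0.0507 and 0.0667). Cars changed by -0.69 ± 0.21 in the Jmjd2c knockdown (adjusted p = 0.0653) and fell by 0.81 ± 0.18 in the Jmjd2b knockdown. Iars changed by -0.22 ± 0.06 in the Jmjd2c knockdown (adjusted p = 0.0583) and fell by 0.28 ± 0.06 in the Jmjd2b knockdown. The count in the Jmjd2b knockdown dropped to 3 without Jmjd2b array 2 or control array 3 and to 4 without control array 2, and that in the Jmjd2c knockdown to 0 without Jmjd2c array 2, control array 2 or control array 3, while it was 6 without Jmjd2c array 1.

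Other products of the ATF4 and CHOP branch were mixed. Of 11, 2 fell and 1 rose in the Jmjd2c knockdown (median -0.25), and 5 fell and 1 rose in the Jmjd2b knockdown (median -0.38). Vegfa, a secreted growth factor of blood vessels, fell by 1.28 ± 0.15 in the Jmjd2c and by 1.72 ± 0.13 in the Jmjd2b knockdown, and the lipoprotein receptor gene Vldlr fell by 0.69 ± 0.16 in the Jmjd2c and by 0.66 ± 0.15 in the Jmjd2b knockdown. Jdp2, which encodes a bZIP repressor, changed by -0.77 ± 0.30 in the Jmjd2c knockdown (adjusted p = 0.147) and fell by 1.71 ± 0.27 in the Jmjd2b knockdown. Bcl2l11, the gene of the cell death protein BIM and a CHOP target, rose by 0.89 ± 0.21 in the Jmjd2c and by 0.97 ± 0.19 in the Jmjd2b knockdown, the opposite direction to Ddit3. The 5 fallen genes of the Jmjd2b knockdown became 3 without Jmjd2b array 1 or 2 or control array 2 or 3, and the 2 of the Jmjd2c knockdown became 1 without Jmjd2b array 1 or control array 1, 2 or 3.

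Upstream, among 13 genes for eIF2 kinases, their phosphatase and eIF2 subunits, 1 fell and 1 rose in the Jmjd2c knockdown, and 3 fell and 2 rose in the Jmjd2b knockdown. All genes gave 5.28% lower and 4.31% higher in the Jmjd2c knockdown, and 12.9% lower and 11.6% higher in the Jmjd2b knockdown. Eif2ak3, which encodes PERK, changed by -0.37 ± 0.13 in the Jmjd2c knockdown (adjusted p = 0.114) and fell by 0.63 ± 0.12 in the Jmjd2b knockdown. Impact, whose product holds GCN2 in check, rose by 1.03 ± 0.26 in the Jmjd2c and by 1.11 ± 0.23 in the Jmjd2b knockdown. Eif2ak1, the kinase that senses heme, changed by 0.45 ± 0.13 in the Jmjd2c knockdown (adjusted p = 0.0586) and rose by 0.50 ± 0.12 in the Jmjd2b knockdown. The subunit gene Eif2s2 changed by -0.23 ± 0.05 in the Jmjd2c and -0.15 ± 0.04 in the Jmjd2b knockdown, both passing, though the Jmjd2b value missed the threshold with the replicate number as a block (adjusted p = 0.0612). In the Jmjd2b knockdown the 3 fallen genes became 1 without Jmjd2b array 1 or 2 or control array 2 or 3, and the 2 risen ones 4 without either Jmjd2c array.

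The ATF6, IRE1 and XBP1 branches raise folding capacity in the endoplasmic reticulum. Of 20 of their genes measured, 4 rose and 0 fell in the Jmjd2c knockdown (median 0.27), and 9 rose and 0 fell in the Jmjd2b knockdown (median 0.40). At an unadjusted p under 0.05, 0 were lower in the Jmjd2c and 1 in the Jmjd2b knockdown. The chaperone gene Calr rose by 0.52 ± 0.12 in the Jmjd2c and by 0.68 ± 0.11 in the Jmjd2b knockdown, and the transcription factor gene Atf6b rose by 0.78 ± 0.15 in the Jmjd2c and by 0.81 ± 0.13 in the Jmjd2b knockdown. Syvn1, a ubiquitin ligase that clears misfolded proteins, rose by 0.76 ± 0.15 in the Jmjd2c and by 0.78 ± 0.14 in the Jmjd2b knockdown. Dnajb11, a co-chaperone of BiP, changed by 0.43 ± 0.13 in the Jmjd2c knockdown (adjusted p = 0.0668) and rose by 0.66 ± 0.12 in the Jmjd2b knockdown. The risen genes numbered 0 without control array 3 and 2 without Jmjd2c array 2 or control array 1 in the Jmjd2c knockdown, and 4 without Jmjd2b array 2 and 5 without Jmjd2b array 3 or control array 3 in the Jmjd2b knockdown, where they also numbered 4 with the value set as a block.

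**Figure D4:**
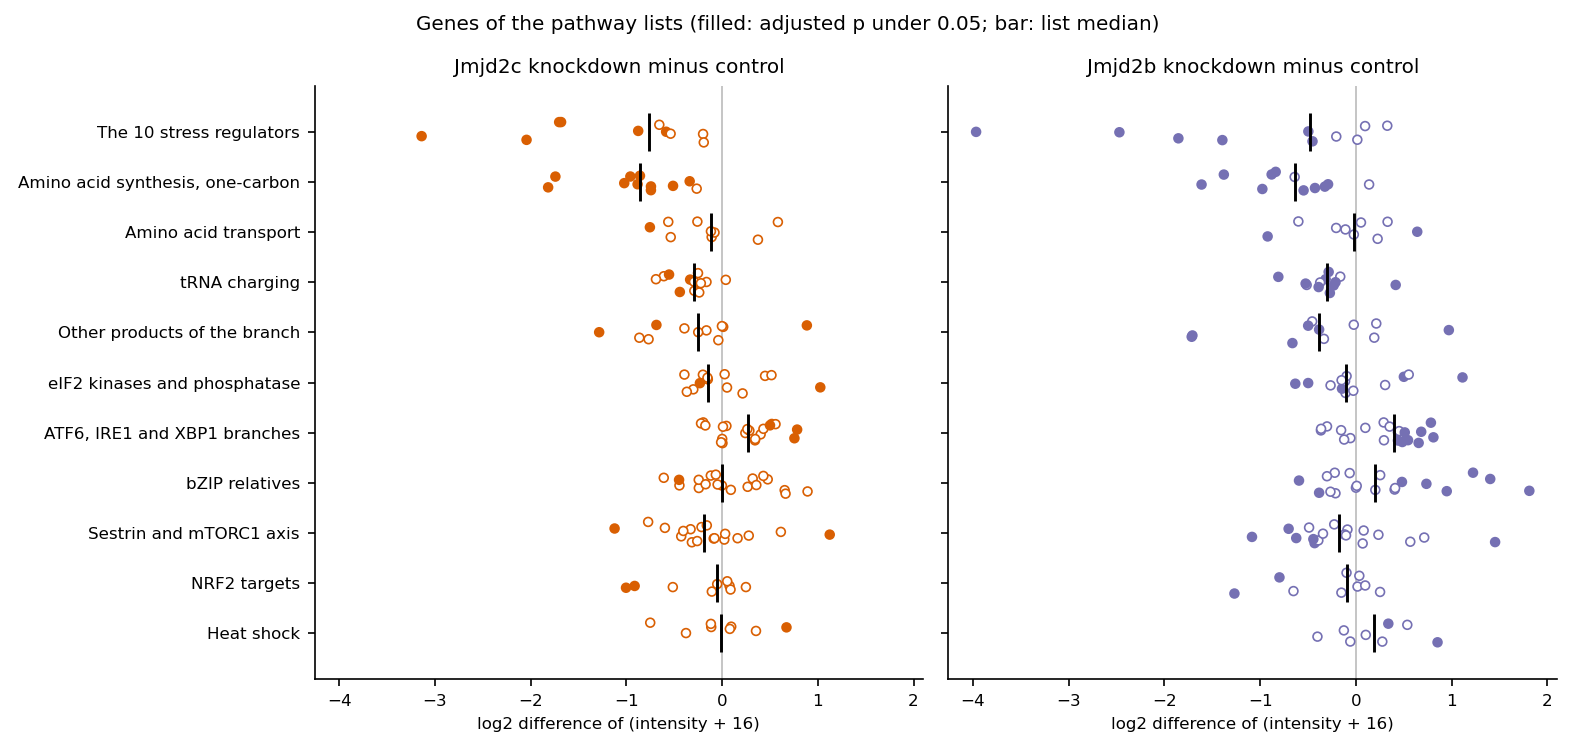
Log2 difference of (intensity + 16) of each gene of 11 groups, a point per gene, for Jmjd2c knockdown minus control and Jmjd2b knockdown minus control, with a bar at each group's median. Filled points passed at an adjusted p under 0.05. In both panels the medians of the 10 stress regulators and of amino acid synthesis lie left of 0 (-0.77 and -0.86 for Jmjd2c, -0.47 and -0.64 for Jmjd2b), and those of the ATF6, IRE1 and XBP1 branches lie right of it (0.27 for Jmjd2c, 0.40 for Jmjd2b).

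Relatives of the 10 genes did not share one direction. Of 19 bZIP relatives and dimer partners, 1 fell and 0 rose in the Jmjd2c knockdown (4 higher at an unadjusted p under 0.05). In the Jmjd2b knockdown 2 fell (1 with the replicate number as a block) and 6 rose. The counts of fallen genes are near the shares of all genes called lower, 5.28% in the Jmjd2c and 12.9% in the Jmjd2b knockdown. The shares called higher were 4.31% and 11.6%. Creb3, the gene of a membrane-bound bZIP factor, changed by 0.66 ± 0.19 in the Jmjd2c knockdown (adjusted p = 0.0535) and rose by 1.22 ± 0.17 in the Jmjd2b knockdown. Cebpd, a relative of Cebpb, changed by 0.65 ± 0.33 in the Jmjd2c knockdown (adjusted p = 0.261) and rose by 1.81 ± 0.29 in the Jmjd2b knockdown. The AP-1 gene Fosl1 changed by 0.48 ± 0.19 in the Jmjd2c knockdown (adjusted p = 0.15) and rose by 0.95 ± 0.17 in the Jmjd2b knockdown. Nfe2l2, the gene of NRF2, fell by 0.45 ± 0.09 in the Jmjd2c and by 0.59 ± 0.08 in the Jmjd2b knockdown. The tribbles genes parted: Trib2 rose by 0.76 ± 0.20 in the Jmjd2c and by 1.62 ± 0.18 in the Jmjd2b knockdown, while Trib3 fell in both. Trib1 changed by -0.38 ± 0.15 in the Jmjd2c knockdown (adjusted p = 0.164) and rose by 0.55 ± 0.14 in the Jmjd2b knockdown. Nupr1l and Chac2, relatives of Nupr1 and Chac1, fell by 0.73 ± 0.16 and 0.63 ± 0.15 in the Jmjd2c knockdown and by 0.81 ± 0.14 and 0.59 ± 0.14 in the Jmjd2b knockdown.

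In the pathway on which Ddit4 and Sesn2 act, 1 of 18 genes fell and 1 rose in the Jmjd2c knockdown, and 5 fell and 1 rose (2 with the replicate number as a block) in the Jmjd2b knockdown. The Jmjd2c counts are near the shares of all genes, 5.28% lower and 4.31% higher, and those in the Jmjd2b knockdown were 12.9% and 11.6%. Rragd, the gene of a GTPase that brings mTORC1 to lysosomes, rose by 1.12 ± 0.20 in the Jmjd2c and by 1.45 ± 0.18 in the Jmjd2b knockdown. Deptor, the gene of an mTOR inhibitor, fell by 1.12 ± 0.20 in the Jmjd2c knockdown and changed by -0.39 ± 0.18 in the Jmjd2b knockdown (adjusted p = 0.15). Wdr59, of a complex that passes on amino acid signals, changed by -0.60 ± 0.19 in the Jmjd2c knockdown (adjusted p = 0.0741) and fell by 1.09 ± 0.17 in the Jmjd2b knockdown. Mtor itself changed by -0.32 ± 0.11 in the Jmjd2c knockdown (adjusted p = 0.119) and fell by 0.43 ± 0.10 in the Jmjd2b knockdown. The count of fallen genes in the Jmjd2b knockdown was 1 without Jmjd2b array 2 or control array 3, 2 without Jmjd2b array 3, 3 without control array 1 and 8 without either Jmjd2c array.

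Other stress responses were set beside these, in small lists. The shares of all genes were again 5.28% lower and 4.31% higher in the Jmjd2c, and 12.9% lower and 11.6% higher in the Jmjd2b knockdown. Of 9 NRF2 targets, the genes of the oxidative stress response, 2 fell and 0 rose in each knockdown (0 higher in the Jmjd2c and 1 in the Jmjd2b knockdown at an unadjusted p under 0.05). They were Nqo1, at -0.91 ± 0.19 in the Jmjd2c and -1.27 ± 0.17 in the Jmjd2b knockdown, and Srxn1, at -1.003 ± 0.20 in the Jmjd2c and -0.80 ± 0.18 in the Jmjd2b knockdown. Without control array 3 the fallen genes numbered 0 in the Jmjd2c and 1 in the Jmjd2b knockdown, and without control array 1 they numbered 1 in the Jmjd2c knockdown. Of 8 heat shock genes, 1 rose and 0 fell in the Jmjd2c knockdown and 2 rose and 0 fell in the Jmjd2b knockdown (2 lower in the Jmjd2c and 0 in the Jmjd2b knockdown at an unadjusted p under 0.05). Hsph1, a chaperone gene, rose by 0.67 ± 0.11 in the Jmjd2c and by 0.85 ± 0.10 in the Jmjd2b knockdown.

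Genes whose levels followed those of the stress genes across the 8 arrays were listed by Pearson's r of log2 values among 8892 genes, which are those above the median level less the 10 genes themselves and clone or predicted-gene names, as a description. The points share the split into knockdown and control arrays. For Nupr1 the nearest were Ppfibp2 (0.996), Vill (0.993), Pde8a (0.992), Rpap1 (0.990) and Lrrc31 (0.989). For Ddit3 they were Cdyl2 (0.991), Tmco4 (0.990), Tjp3 (0.990), Aqp3 (0.989) and Myh14 (0.988). For Atf4 they were Jak3 (0.978), Narf (0.972), Lrba (0.968), Heca (0.967) and Elovl7 (0.967). Lrrc31 changed by -2.46 ± 0.34 in the Jmjd2c and by -3.40 ± 0.30 in the Jmjd2b knockdown.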

How the data were processed

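The values the authors deposited are linear array intensities, 1 for each probe set in each of 8 samples. Per the labels' protocols, biotin-labelled cRNA was made from total RNA as Affymetrix prescribes. The sources used here do not give the method of summarising, background correction or scaling. Groups and replicate numbers came from the sample titles. Of 45101 probe sets, 34945 had 1 gene symbol in the platform annotation, 932 several and 9160 none, and 64 were array controls. No sample column was left unused (0).

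Intensities were converted to log2(value + 16) with no further normalization or filter. Group means over all 8 arrays were fitted with limma 3.58.1 in R 4.3.3 (lmFit, eBayes with trend, two-sided, Benjamini-Hochberg over 18193 genes, threshold 0.05), so that 1 estimate of spread serves all groups, the Jmjd2c arrays (2) included. The fit was tested on simulated data. Where leaving out an array left 1 Jmjd2c array, it was assumed to vary like the other groups. The number of arrays limits precision. The 10 genes, the 13 lists (153 of 160 entries measured) and the tests were chosen with earlier results of these data known, so no count of a list is independent evidence. Named are all 10 genes, the hairpin targets, up to 4 genes of each list by smallest p, and the 5 genes most alike to Nupr1, Ddit3 and Atf4. Col1a1, Pdgfrb and Thy1 fall under the list rule, while Wars, Pou5f1 and Utf1 were named after their values were seen. Ppp1r15a and Cebpg stand in 2 lists.

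Same-numbered Jmjd2b and control arrays deviated together from their group means (correlations across genes of 0.176, 0.111 and 0.116, against -0.127 to 0.0167 for other pairs), so the numbers were taken to pair them. Deviations within a group cancel out, so high same-number values force lower ones for other pairs, and the contrast is weak evidence. The labels do not state a pairing. The main fit leaves it out, and the replicate number as a block is among the alternatives. Jmjd2c arrays correlated with same-numbered controls at 0.0408 and 0.0633 and were not taken as paired, though that block numbers them too. Alternatives changed the pseudocount, filter, normalization, probe set choice, trend, arrays fitted and blocks. The value sets were put in as a block after seeing the data, as were fits within the set of the Jmjd2c arrays. Promoter windows came from RefSeq (GRCm38.p6). Tables and figures used Python 3.11.15, pandas 2.3.3 and matplotlib 3.10.9.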

Additional observations from a re-analysis of the deposited data

Results flagged for a closer look

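Some genes differed between the knockdowns by the test of the difference itself. Atf3 was lower in the Jmjd2c than in the Jmjd2b knockdown, with a log2 difference of -0.87 (adjusted p = 0.0402, limma). The call was lost without any 1 Jmjd2b or control array. Its intensity was 64.8 and 70.2 in Jmjd2c arrays and 126 to 143 in Jmjd2b arrays. Cth differed by -1.02 (adjusted p = 0.0137), a call that 15 of 21 alternatives kept and that was lost without Jmjd2b array 2 (adjusted p = 0.087). Trib1 differed by -0.92 (adjusted p = 0.0341), and 8 of 20 alternatives kept that call, which was lost without any 1 Jmjd2b or control array. Kdm4b differed by 2.60, and it is the target of the Jmjd2b hairpin. No group has 4 or more arrays, so single arrays were not tested as outliers.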

How the results depend on the processing

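The 6 falls kept their direction in both knockdowns under every alternative run. Without any 1 array, 4 to 6 of the 10 genes were called lower in the Jmjd2c and 5 to 6 in the Jmjd2b knockdown. Among the arrays whose values go below 1, 0 were called in each, and with the value set as a block (chosen after seeing the data) 1 was called in the Jmjd2c knockdown. The arrays below 1 hold 1 control, and the value set block reaches controls from the Jmjd2c arrays only through Jmjd2b array 3. Between the knockdowns, the count of 1 became 0 with the 2 groups alone, with the replicate block, with array type or value set as a block, within the Jmjd2c value set and among arrays below 1, and 0 to 2 without 1 array. Genes called over the whole array numbered 1745 in the Jmjd2c knockdown, against 876 with the 2 groups alone, 1057 with array type as a block, 9 with the value set as a block, 0 among arrays below 1 (2185 at an unadjusted p under 0.05) and 469 (without control array 3) to 2935 (without Jmjd2c array 1) without 1 array. In the Jmjd2b knockdown they numbered 4446, against 1178 among arrays that stop at 1, 102 among those below 1, and 2635 (without control array 3) to 5630 (without Jmjd2c array 1) without 1 array. Between the knockdowns they numbered 126, against 80 with a pseudocount of 1, 66 with no trend, 2 with the 2 groups alone, 6 with array type and 5 with the value set as a block, 0 within the Jmjd2c value set (622 at an unadjusted p under 0.05), 0 among arrays below 1 (1099) and 2 (without Jmjd2b array 2) to 804 (without Jmjd2c array 1) without 1 array.

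With the replicate block, 6 of the 10 genes were called lower in both knockdowns and 4319 genes in all in the Jmjd2b knockdown, and it ended no call of the 10 against control. Among the named list genes and markers it ended 7 calls in the Jmjd2c knockdown, those of Slc7a1 (adjusted p = 0.0637), Nars (0.0667), Yars (0.0507), Vldlr (0.0531), Trib2 (0.0576), Nupr1l (0.0501) and Pdgfrb (0.0563), and in the Jmjd2b knockdown those of Eif2s2 (0.0612) and the ES cell marker Tdgf1 (0.0611). Sign changes occurred only where the value passed in neither setting, as for Sesn2 in the Jmjd2b knockdown under 6 of 21 alternatives. No Jmjd2c array stops at 1, so that setting gave no Jmjd2c value. The causes of these shifts were not tested.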
